A study of Arabidopsis thaliana with 8 samples.

Results

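The 7 genes described here, GSTU16, GSTU18, GSTU20, GSTU22, GSTU25, GSTU26 and GSTU27, encode tau-class glutathione transferases of Arabidopsis thaliana. They were taken as a named list, chosen with earlier results of these data known. Each was read from a probe set that the gene table assigns to that gene alone, out of 22746 probe sets that are not controls. The table named 11 of the 28 tau-class genes listed for this comparison, and the other 4, GSTU15, GSTU21, GSTU23 and GSTU28, lay below the signal minimum for testing. All 7 had a mean signal of at least 25 and were tested together with the rest of the array, 15165 probe sets in all.

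Whole plants at stage 3.90 were compared between Cal-0, labelled a calcicole (adapted to calcareous soils), and Col-4, labelled a non-calcicole. Both accessions were stratified for 48 h at 4 degrees Celsius, and the labels give both the same humidity (34) and light (160). They received 1 mM calcium chloride and 0.5 times Long Ashton nutrients in sand at 23 degrees Celsius. Every difference below is thus between accessions under a shared supply. Each accession was measured on 4 one-colour ATH1 arrays, whose deposited values are MAS5 signals on a linear scale with a common trimmed mean of 100.01. Because whole plants were used, organs cannot be separated, and fewer cells of a type cannot be told apart from less RNA per cell. Only 2 of 10 listed shoot markers (RCA and LHCB4.1) and 3 of 7 root markers (PYK10, EXPA7 and AT5G17820) were measured. These 5 had signal on every array, and none passed the test between accessions. Their log2 differences, Cal-0 minus Col-4, were -0.01 for RCA, -0.197 for LHCB4.1, 0.35 for PYK10, 0.02 for EXPA7 and 0.64 for AT5G17820. That of AT5G17820 had a 95% interval of 0.079 to 1.195 and a limma adjusted p of 0.24. Whether the organ make-up of the accessions was alike was not tested.

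Glutathione transferases join the tripeptide glutathione to reactive or toxic molecules, which are then moved into the vacuole by ABC transporters. The tau class is specific to plants and large, with many of its genes lying side by side in the genome after local duplication. Tau-class genes are known for induction by herbicides, herbicide safeners, oxylipins and other stresses, and several of the enzymes also bind small molecules without converting them.

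The tau-class genes did not move together between the accessions. The signals of GSTU16, GSTU26 and GSTU18 were lower in Cal-0, with differences of -0.83, -0.71 and -0.68 on the scale of log2(signal + 16). These and all differences below are of probe-set signal, and whether the probe sets read both accessions equally well was not tested. GSTU22, GSTU27, GSTU20 and GSTU25 had positive differences of 0.80, 0.71, 0.45 and 0.34, none of which passed limma with Benjamini-Hochberg adjustment over all tested probe sets. Thus 3 of 7 members were called, all lower in Cal-0, where 4.29% of all tested probe sets were called in either direction, 2.75% lower and 1.54% higher. The median difference of the 7 was 0.34 and their median absolute difference was 0.71, against 0.03 and 0.16 over all tested probe sets. The 7 were chosen with earlier results of these data known, so shares and medians here and below do not measure enrichment of the family.

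GSTU16 (AT1G59700) had signals of 56.0, 42.3, 64.3 and 42.0 in Cal-0 replicates 1 to 4 and of 95.6, 87.5, 133.5 and 98.6 in Col-4. Every Cal-0 array lay below every Col-4 array. The means were 51.2 ± 10.9 and 103.8 ± 20.4 (mean ± SD, n = 4 each), so Col-4 was 2.03-fold higher on the linear scale. The log2 difference of -0.83 had a standard error of 0.165 and a limma adjusted p of 0.0141.

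GSTU26 (AT1G17190), whose transcript is known to be induced by chloroacetanilide herbicides and by cold, had signals of 23.8, 16.3, 17.4 and 19.5 in Cal-0 and of 41.6, 34.9, 46.2 and 43.1 in Col-4. The groups did not overlap, and the Cal-0 values lay near the lower quartile of all probe sets on these arrays, which was 14.1 to 18.1 for Cal-0. The means were 19.3 ± 3.31 and 41.5 ± 4.77 (mean ± SD, n = 4 each), so GSTU26 reached the minimum of 25 through its Col-4 arrays, and without detection calls the Cal-0 values do not show whether the transcript was present. The log2 difference was -0.71 with a standard error of 0.132 (limma adjusted p = 0.0104), the smallest p among the members. At so low a signal its size was sensitive to the pseudocount: -1.07 with 1, -0.40 with 50, and called with both.

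GSTU18 (AT1G10360) had signals of 122.1, 135.7, 98.1 and 108.1 in Cal-0 and of 188.3, 230.6, 182.2 and 177.6 in Col-4. These groups did not overlap either, with means of 116 ± 16.4 and 194.7 ± 24.4 (mean ± SD, n = 4 each). Col-4 was 1.68-fold higher on the linear scale (log2 difference -0.68, standard error 0.143, limma adjusted p = 0.0204). The call was the least stable of the 3. It was lost without Cal-0 replicates 1, 3 or 4 or without Col-4 replicate 2, at limma adjusted p of 0.0523, 0.0659, 0.0524 and 0.0721.

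GSTU20 (AT1G78370) encodes a protein known to bind JAR1 (FIN219), the enzyme that conjugates jasmonate to isoleucine, in far-red light signalling. Its signals were 2417.9, 2191.9, 2105.1 and 2613.5 in Cal-0 and 1707.6, 1483.4, 1835.6 and 1770.6 in Col-4. The groups did not overlap, at 2332 ± 229 and 1699 ± 153 (mean ± SD, n = 4 each), a linear ratio of 1.37. The log2 difference of 0.45 had a 95% interval of 0.159 to 0.746, and its limma adjusted p was 0.0914. GSTU20 was thus 1 of 4 members whose groups were apart, with GSTU16, GSTU18 and GSTU26, while separated groups were found in 10.3% of all tested probe sets, 4.89% with Cal-0 above and 5.43% with Cal-0 below. It passed in 4 alternatives, with limma adjusted p of 0.04 with a pseudocount of 50, 0.0453 after quantile normalization, 0.0485 with the array set as a block and 0.0488 with array weights.

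GSTU22 (AT1G78340) had signals of 82.2, 77.9, 83.9 and 107.6 in Cal-0 and of 44.8, 29.6, 30.7 and 79.4 in Col-4. Col-4 replicate 4 lay among the Cal-0 values, while the other 3 Col-4 arrays lay below all of them. The means were 87.9 ± 13.4 and 46.1 ± 23.2 (mean ± SD, n = 4 each), a linear ratio of 1.91. The log2 difference was 0.80, with a 95% interval of 0.316 to 1.286 and a limma adjusted p of 0.0706. Without Col-4 replicate 4 it was 1.03 at a limma adjusted p of 0.00497, and with all 8 arrays it passed with array weights (limma adjusted p = 0.0184) and with either block below.

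GSTU27 (AT3G43800) had signals of 445.3, 453.2, 323.5 and 235.9 in Cal-0 and of 231.7, 241.1, 195.7 and 175.5 in Col-4. Cal-0 replicate 4 overlapped with Col-4 replicates 1 and 2, and the other 3 Cal-0 arrays were higher than all Col-4 arrays. The means were 364.5 ± 104 and 211 ± 30.7 (mean ± SD, n = 4 each). The log2 difference was 0.71 with a 95% interval of 0.263 to 1.158 and a limma adjusted p of 0.0827, and without Cal-0 replicate 4 it was 0.89 at a limma adjusted p of 0.0171. The root gene PYK10, which encodes a beta-glucosidase, had 1010.3 and 1106.1 for Cal-0 and 887.3 and 566.1 for Col-4 on arrays 1 to 4 of the titles, and 639 and 395 for Cal-0 and 638.2 and 328.8 for Col-4 on arrays 5 to 8, so that the sets of arrays overlapped. Of the 7 root markers 3 were measured and none was at 0. Their mean signals were 696.3 for PYK10, 126 for AT5G17820 and 47.1 for EXPA7, so PYK10 made up most of their sum. AT5G17820 had 156 ± 45.2 for Cal-0 against 96.05 ± 37.9, and EXPA7 had 45.6 ± 8.35 against 48.6 ± 27.7 (mean ± SD, n = 4 each). The summed signal ran from 533 to 1303 in Cal-0 and from 431.6 to 1120 in Col-4, and its part in the GSTU27 values was not tested.

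GSTU25 (AT1G17180), whose enzyme is known to conjugate the explosive trinitrotoluene, had signals of 31.5, 40.7, 22.3 and 41.0 in Cal-0 and of 41.4, 23.6, 11.6 and 20.7 in Col-4. The groups overlapped broadly, since Col-4 replicate 1 was the highest of the 8 arrays. The means were 33.9 ± 8.89 and 24.3 ± 12.5 (mean ± SD, n = 4 each). The log2 difference of 0.34 had a 95% interval of -0.138 to 0.815 (limma adjusted p = 0.539), so neither a difference of 0 nor a higher signal in Cal-0 of up to 0.815 was outside the interval. It was 0.17 without Col-4 replicate 3 and 0.52 without Col-4 replicate 1.

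**Figure D1:**
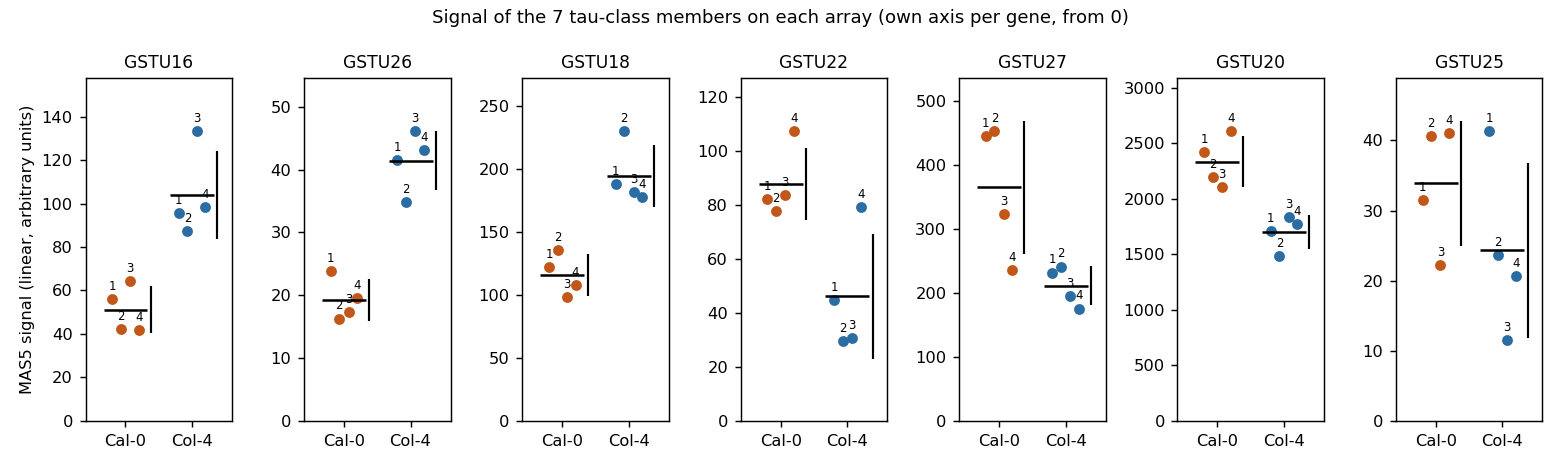
MAS5 signal of each of the 7 tau-class genes on the 8 arrays, in arbitrary linear units with an axis from 0 for each gene. Points are arrays numbered by replicate, horizontal lines are means and vertical lines are 1 SD to either side (n = 4 arrays per accession). GSTU16, GSTU26 and GSTU18 are lower on every Cal-0 array and GSTU20 is higher on every Cal-0 array, while single arrays of GSTU22 and GSTU27 lie with the other accession and GSTU25 overlaps broadly.

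Same-numbered arrays of both accessions deviated from their means in parallel, at correlations of 0.278 to 0.478. Among arrays 1 to 4 unlike numbers did so as well, at 0.382 and 0.273, and the labels state no pairing by number. With the replicate number fitted as a block 5 of the 7 members passed, where 8.57% of all tested probe sets did. GSTU22 and GSTU27 were then called as higher in Cal-0, at limma adjusted p of 0.0112 and 0.0104. GSTU20 stayed just outside at 0.0508 and GSTU25 at 0.261, while GSTU16, GSTU18 and GSTU26 kept their calls at 0.00322, 0.00737 and 0.0074. The titles also number the arrays from 1 to 8, and with the division between arrays 1 to 4 and 5 to 8 as a block 6 of the 7 passed, all except GSTU25, where 7.22% of all tested probe sets did.

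**Figure D2:**
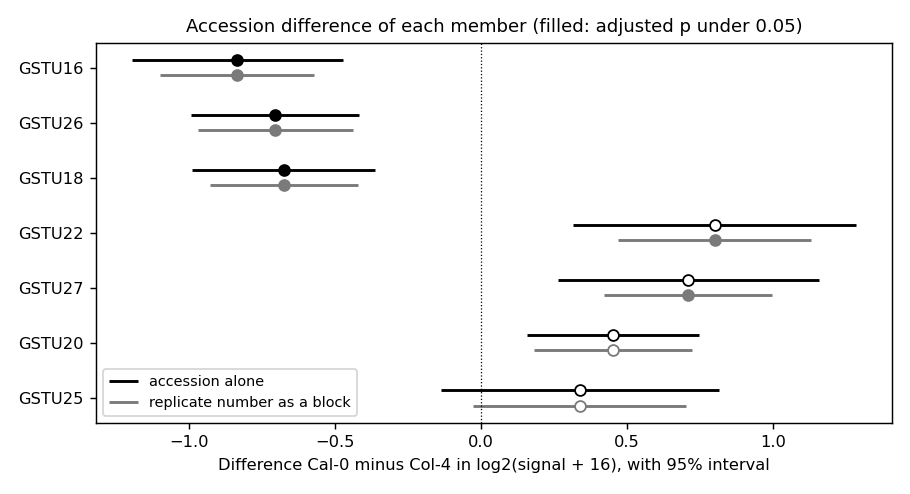
Difference between Cal-0 and Col-4 of each gene on the scale of log2(signal + 16), with its 95% interval from limma. Black shows the fit with accession alone and grey the fit with the replicate number as a block, and filled points have an adjusted p under 0.05. The 3 negative differences are filled in both fits, and those of GSTU22 and GSTU27 are filled with the block alone.

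Each set of 4 arrays gave every member the same sign. For GSTU16, GSTU18, GSTU20 and GSTU26, whose groups did not overlap, that outcome was fixed by the separation over all 8 arrays. The sets are parts of the same 8 arrays, so their agreement is no replication. In arrays 1 to 4 and in arrays 5 to 8 the differences were -0.73 and -0.94 for GSTU16, -0.595 and -0.816 for GSTU26, and -0.63 and -0.72 for GSTU18. They were 0.87 and 0.735 for GSTU22, 0.88 and 0.54 for GSTU27, 0.53 and 0.38 for GSTU20, and 0.12 and 0.55 for GSTU25. Over all tested probe sets 64.7% had the same sign in both sets of arrays. With only 2 arrays per accession in a set, GSTU27 alone was called in arrays 1 to 4 (limma adjusted p = 0.0392) and GSTU26 alone in arrays 5 to 8 (limma adjusted p = 0.0471), where 2.5% and 2.1% of all tested probe sets were called.

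RNA quality was read from the GAPDH and actin control probe sets. Their log2 ratio of 3′ over 5′ signal was higher in Cal-0 within arrays 1 to 4 (1.65 and 1.48 against 0.93 and 0.91) and overlapped within arrays 5 to 8 (1.83 and 1.92 against 1.62 and 2.32). With this ratio as a covariate the differences of GSTU16, GSTU26 and GSTU18 were -0.87, -0.74 and -0.62 and still passed. GSTU27 passed as well in that fit, at 0.83 (limma adjusted p = 0.0236), which makes 4 of 7 members where 5.74% of all tested probe sets passed. GSTU22 stood at 0.65 without passing.

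Negative and positive differences, the latter not past the threshold, were found at similar signal. The mean signals of the 3 genes that fell were 30.4 for GSTU26, 77.5 for GSTU16 and 155.3 for GSTU18, and those of the 4 others were 29.1 for GSTU25, 67 for GSTU22, 287.7 for GSTU27 and 2016 for GSTU20. Signals of different probe sets do not give the relative abundance of their transcripts, so these values place the measurements and not the genes. Each of the bands from 25 to 50, 50 to 100 and 100 to 400 signal units held a member with a negative and a member with a positive difference. Over all tested probe sets, calls were lower in Cal-0 in 62.1% of cases in the first of these bands, 66.7% in the second and 63% in the third, and in 65.5% from 400 upward.

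The spread between arrays of an accession varied among the members. The residual SD on the log2 scale was 0.128 for GSTU26, 0.137 for GSTU20 and 0.169 for GSTU18, with 8.51%, 11.1% and 22.5% of all tested probe sets having a smaller one. It was 0.371 for GSTU22, 0.362 for GSTU25 and 0.332 for GSTU27, with 84.9%, 83.6% and 78.3% of probe sets below. GSTU16 lay between, at 0.232. The large spread of GSTU22 came from Col-4, where the SD was 0.495 against 0.177 in Cal-0, and that of GSTU27 from Cal-0, where it was 0.425 against 0.198 in Col-4.

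**Figure D3:**
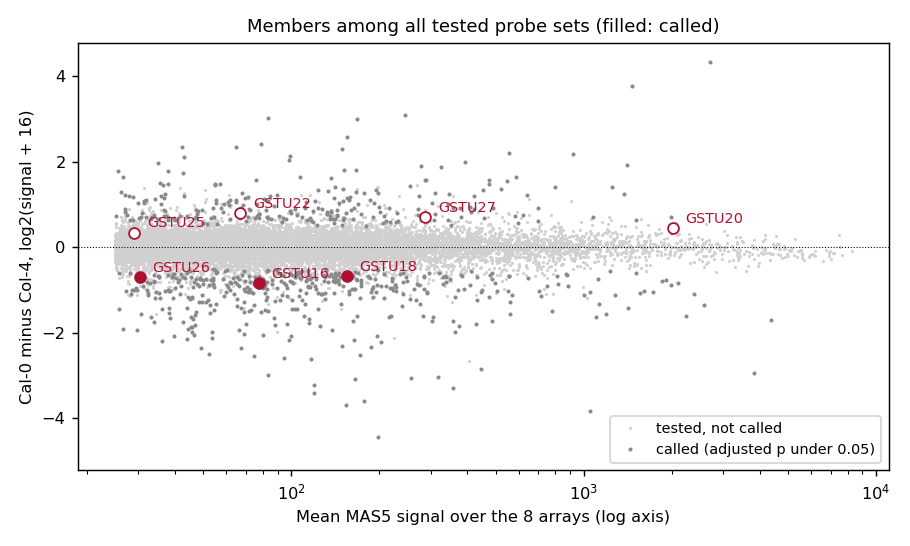
Mean MAS5 signal over the 8 arrays (log axis) against the difference between Cal-0 and Col-4 in log2(signal + 16) for all 15165 tested probe sets. Red circles are the tau-class genes, filled where called, and dark grey points are other called probe sets. Negative and positive members lie beside each other along the signal axis from GSTU25 and GSTU26 near 30 to GSTU18 and GSTU27 at 155.3 and 287.7.

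GSTU25 and GSTU26 are immediate neighbours, and their ratio was compared with the opposite signs of their differences already known, so it is no independent evidence of them. Both reached the minimum of 25 through their higher group alone. The within-array log2 ratio of GSTU25 to GSTU26 was 0.255, 0.812, 0.197 and 0.683 in Cal-0 replicates 1 to 4, and -0.005, -0.362, -1.172 and -0.687 in Col-4. All Cal-0 ratios exceeded all Col-4 ratios. The means differed by 1.04 on the log2 scale, and an exact two-sided permutation test over 70 assignments gave p = 0.0286, the smallest it allows. Adjusted over the 2 pairs compared, p was 0.0571 and did not pass. The difference was 1.63 with a pseudocount of 1 and 0.58 with 50.

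GSTU20 and GSTU22 lie 4 genes apart, with GSTU21 between them, and both differences were positive. The ratio of GSTU22 to GSTU20 differed between the accessions by 0.35 on the log2 scale (exact two-sided permutation p = 0.171, and 0.171 adjusted over the 2 pairs). Its values ran from -4.631 to -4.408 in Cal-0 and from -5.309 to -4.227 in Col-4, where replicate 4 was the highest. Without Col-4 replicate 4 the difference was 0.56 at p = 0.0286 by exact permutation. GSTU21, next to GSTU20, had a Cal-0 signal of 10.5 ± 4.73 against 10.3 ± 5.47, and GSTU23, 2 genes from GSTU22, had 13 ± 8.02 against 13.7 ± 7.44 (mean ± SD, n = 4 each). Both were under the minimum for testing.

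Around the 3 genes that fell, no tested neighbour was called lower in the fit with accession alone. GSTU16 has AT1G59710 as its next gene, which had a Cal-0 signal of 155.8 ± 44.5 against 81.3 ± 16.4 (mean ± SD, n = 4 each). That positive difference of 0.80 had a limma adjusted p of 0.0514, and passed with the replicate number as a block at 0.0115. CW9, 9 genes from GSTU16, rose in Cal-0 by 0.90 (98.1 ± 11.9 against 44.95 ± 4.47, limma adjusted p = 0.0023). CW14, 6 genes away, had a difference of -0.73 (limma adjusted p = 0.0672), and CRR28, for a pentatricopeptide repeat protein of chloroplast RNA editing, had 0.54. With the block CW14 passed, at a limma adjusted p of 0.0427. Beside GSTU18 the nearest tested genes were AT1G10350, immediately next to it, at 0.01, and AT1G10380, 2 genes away, at -0.14. On the far side of GSTU26 the nearest was FUG1, for a chloroplast translation initiation factor, at 0.01, and on the far side of GSTU25 it was AT1G17160 at -0.39 (limma adjusted p = 0.353).

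The GSTU20 and GSTU22 run was flanked by AT1G78450 at 0.06 and AT1G78280 at 0.12. Near GSTU27 the gene AT3G43740, 6 genes away, was the only other probe set tested within 10 genes. It fell in Cal-0, from 158.3 ± 10.9 to 66.8 ± 8.58 (mean ± SD, n = 4 each), a log2 difference of -1.08 (limma adjusted p = 0.000593), opposite to that of GSTU27. In all, 18 neighbours outside the 7 genes were tested within 10 genes of a member, and the 2 called, CW9 and AT3G43740, make 11.1% of them, beside 4.29% of all tested probe sets. With the replicate block 5 of the 18 passed, or 27.8%, beside 8.57% of all tested probe sets, the others being AT1G59710, CW14 and AT1G17145. AT1G17145, 5 genes from GSTU25, had a positive difference of 0.45 (limma adjusted p = 0.0896, and 0.0398 with the block).

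**Figure D4:**
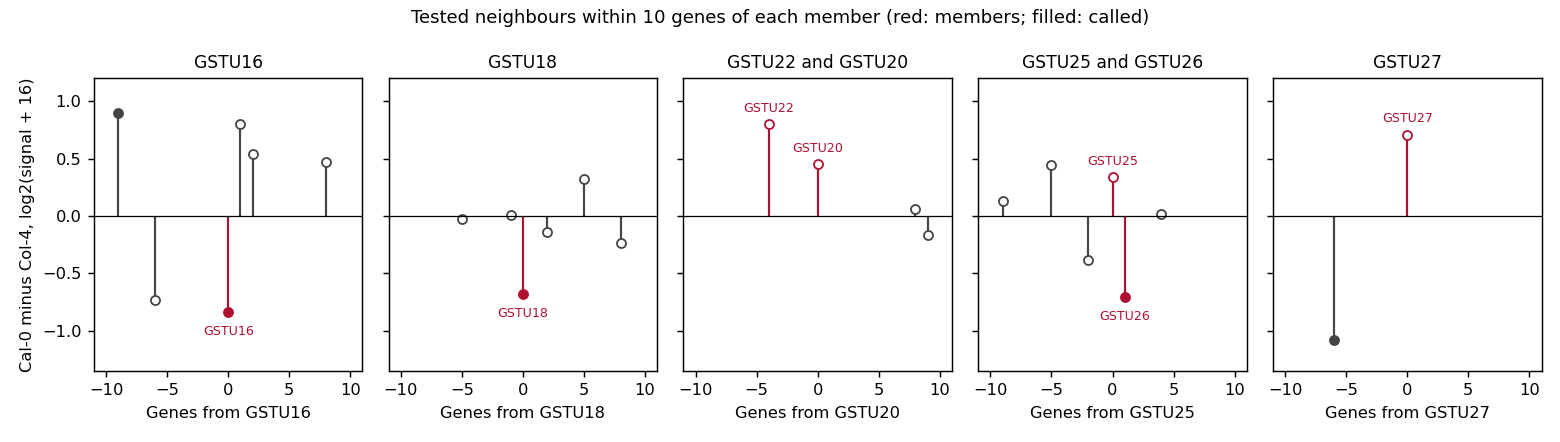
Difference between Cal-0 and Col-4 in log2(signal + 16) for each tested gene within 10 genes of the member named under the panel. Places in the gene order are counted in genes from that member. AT1G78280, 8 genes from GSTU22, is more than 10 genes from GSTU20 and is not drawn. Red marks the tau-class genes and filled points are called. GSTU25 and GSTU26 point in opposite directions, GSTU22 and GSTU20 both point upward, and the called neighbours CW9 (0.90) and AT3G43740 (-1.08) point away from GSTU16 and GSTU27.

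No tested gene of the glutathione lists beyond the 7 passed between the accessions in the fit with accession alone. Only 8 could be tested, 5 of them from the glutaredoxin and ascorbate peroxidase list, so this is no result on the pathways as a whole. Of 95 entries in 8 pathway lists, 16 had a probe set with that gene alone, 8 were tested and none was called by limma, where 4.29% of all tested probe sets were. Those 8 had 5 positive and 3 negative differences. GSTL3, of the lambda class, had 716.6 ± 100.2 for Cal-0 against 776.1 ± 199.6 (mean ± SD, n = 4 each), which is -0.08 on the log2 scale. The glutathione reductase genes GR1 and GR, whose enzymes recycle oxidised glutathione, differed by -0.04 and 0.03. The glutaredoxin genes GRXC1, GRXC2 and GRX480 had differences of 0.52, 0.19 and 0.41, and those of the chloroplast ascorbate peroxidase genes SAPX and TAPX were 0.48 and -0.45. GRXC1 and TAPX passed with the replicate number as a block, at limma adjusted p of 0.0413 and 0.0475. The listed transporters of glutathione conjugates, TGA and SCL14 regulators and genes of sulfate assimilation were not analysed here, because the table gave no probe set to any listed gene alone.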

How the data were processed

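The authors computed each deposited intensity, on a linear scale, with MAS5 per the submitters' processing notes, and no version is given in the sources used here. No detection calls were used. Array medians were 44 to 50.1, and the number of arrays limits the precision. Probe sets were named from the platform annotation, and RefSeq TAIR10.1 supplied current symbols and the order of genes, not coordinates. All 7 member probe sets carry the plain suffix that marks no known cross-hybridisation.

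Signals were taken as log2(signal + 16), which understates the change of low genes, and those averaging at least 25 were tested in limma 3.58.1 under R 4.3.3 (lmFit, eBayes, two-sided, no covariate; Benjamini-Hochberg adjustment over 15165, threshold 0.05). The fit called 651, of which 417 were lower in Cal-0. It was also run on simulated data with these means and spreads, 200 changed probe sets per run and noise independent between arrays. There it recovered 59.5% of changes of 1 on the log2 scale and 10% of those of 0.5. These rates need not hold for the real arrays, which gave 651 calls and deviated in parallel. Labels do not say that replicates are separate cultures, so p-values cover only the variation among these samples, possibly technical. Deviations from the accession mean correlated at 0.278, 0.376, 0.478 and 0.403 between arrays of the same number, on which the pairing rests; among arrays 1 to 4 unlike numbers correlated as well (0.382 and 0.273).

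Named genes were the members, the list gene with the smallest p or the called ones, the nearest and the called neighbours within 10 genes, and for each member the closest profile over the 8 arrays. CRR28, AT1G17145, GR, GRXC2, GRX480, SAPX, TAPX and the listed genes below the minimum fall outside that rule and were named after their values were seen. Members and lists were chosen with earlier results of these data known, and the glutaredoxin and ascorbate peroxidase list was added once the gene table was known. Alternatives were pseudocounts, filters, scalings, variance models, blocks, the 3′ to 5′ ratio and each array left out.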

Additional observations from a re-analysis of the deposited data

How the results depend on the processing

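No member changed direction in any of 129 refits. These took in pseudocounts of 1 and 50, other filters, quantile normalization, median centring, variance models, array weights, blocks, the 3′ to 5′ ratio and each array left out. The filters, blocks and variance models left every estimate as it was, so they could not change a direction. For GSTU16, GSTU18, GSTU20 and GSTU26, whose groups did not overlap, a pseudocount, array weights or a left-out array could not do so either. GSTU16 and GSTU26 kept their call in all 18 of their refits, GSTU25 was called in none, and GSTU18 lost its call in 4 of 19, all with an array left out. GSTU20, GSTU22 and GSTU27 each gained a call in 4. A pseudocount of 1 or 50 moved GSTU25 to 0.55 or 0.18. The number of members called was 5 with the replicate block, 6 with the array set as a block, 5 with array weights, and 1 of the 3 left with a minimum signal of 100; with an array left out it was 2 to 4. Over all probe sets the replicate block gave 1299 calls, the array set block 1095 and array weights 864, each of 15165 tested. The minimum of 100 gave 406 of 6614 tested. Leaving out an array gave 414 to 668 calls of 15058 to 15232 tested. The low values were 414 (no Col-4 replicate 2) and 420 (no Cal-0 replicate 1). The GSTU25 to GSTU26 ratio was compared with the opposite signs already known, so its refits are no independent evidence of them. Its difference of 1.04 gave an exact permutation p of 0.125 within replicate pairs and 0.0556 within array sets, the smallest either allows. With an array left out the difference was 0.84 to 1.23, and the exact permutation p was 0.0571 without any single Cal-0 array. For GSTU22 to GSTU20 the range was 0.196 to 0.56, and replicate pairs gave p = 0.25 by exact permutation. Among 14 groups of 4 arrays none held a value beyond Dixon's 95% limit.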

Other observations

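Tau-class genes below the minimum for testing also had signal on some arrays. GSTU28 ran from 7.6 to 55.1, with Cal-0 replicate 2 the highest. GSTU15, 4 genes from GSTU16, ran from 1.4 to 3.9 on arrays 1 to 4 and from 8.9 to 17.6 on arrays 5 to 8, without overlap between the sets of arrays and with overlap between the accessions. At such low signal, without detection calls, these values do not show whether the transcript was present.

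Profiles over the 8 arrays were compared with those of 8299 other probe sets of a single gene, as the root mean square difference of log2(signal + 16) after each gene's mean was removed. This is a description over arrays that share the accession difference. The closest to GSTU22 was CYP71B29, a cytochrome P450 gene, at 0.138. It had 33.5 to 39.8 in Cal-0 and 18.4, 8.7, 8.2 and 35.6 in Col-4 replicates 1 to 4, so that Col-4 replicate 4 again lay with Cal-0. The closest to GSTU27 was AT1G31690 at 0.095, with 357.5, 378.4, 291.3 and 179.6 in Cal-0 and 136.3 to 181.4 in Col-4. Those closest to GSTU16, GSTU18, GSTU20, GSTU25 and GSTU26 were AT1G52510 (0.106), AT5G50130 (0.087), AT4G02120 (0.086), AT5G42830 (0.099) and AT3G57780 (0.106). Among the members themselves the closest pair was GSTU16 and GSTU26 at 0.184, and the farthest was GSTU16 and GSTU22 at 0.919.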
